A study of Homo sapiens with 6 samples.

Results

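SLC7A5, SLC7A11 and SLC3A2 were followed here through their rows in a table of gene read counts, where the symbols matched exactly 3 of 58735 genes. They were selected on their CQ to CK difference, which was known from an earlier reading of the same counts. The RNA was that of T47D, an established luminal line of human breast cancer in which estrogen and progesterone receptors are made. The treated libraries are coded CQ (3 libraries, experimental treatment) and the controls CK (3 libraries), and the replicates are described as biological without a statement that they came from separate cultures. The series concerns fine particulate matter (PM2.5), and the extraction protocol, worded alike for both groups, places RNA extraction at 48 h of PM2.5 exposure. That CQ cells were the exposed ones is inferred from this text, the sources give no dose, and all libraries come from 1 cell line.

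These genes encode the parts of 2 amino acid exchangers that share a subunit. SLC3A2 encodes the CD98 heavy chain, a membrane glycoprotein that brings its partners to the cell surface. SLC7A5 encodes LAT1, the light chain that takes up leucine, tryptophan and other large neutral amino acids in exchange for glutamine and other intracellular amino acids. SLC7A11 encodes xCT, the light chain that imports cystine, the source of cysteine for glutathione, in exchange for glutamate. As background, transcription of these genes is known to respond to the factor ATF4 when amino acids run short, and that of SLC7A11 also to the oxidative stress factor NRF2.

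Deposited counts summed to between 30970218 and 36878525 in CQ libraries and between 34696540 and 36024874 in CK libraries. Of 10 luminal breast epithelial markers, 9 averaged at least 1 CPM (counts scaled to library size, the usual per-million unit) and TFF1 was close to 0. Their summed level was 8122 to 10136 CPM in CQ libraries and 19209 to 21079 CPM in CK libraries, with ESR1, PGR and the keratins among the 6 markers that fell. The keratins KRT8, KRT18 and KRT19 made up most of that sum, at 8154, 1846 and 7504 CPM on average in CK libraries. GATA3, EPCAM and CDH1 did not fall, at 629, 172 and 370 CPM on average in CQ, against 613, 169 and 350 CPM in CK libraries. None of 3 basal markers and 2 of 10 blood, vessel and stroma markers reached 1 CPM on average, and the blood, vessel and stroma list summed to at most 4.77 CPM in CQ and 7.05 CPM in CK libraries. Whether the luminal markers that fell bear on the transporter genes was not tested. In bulk RNA, fewer cells of a kind and less RNA per cell cannot be told apart.

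SLC3A2 (ENSG00000168003), the shared heavy chain, lies on chromosome 11 from 62856102 to 62888875 on the plus strand (GRCh38), with 23 annotated transcripts from several start sites. It stood at 3333, 3031 and 3043 CPM in CQ replicates 1 to 3, against 1112, 1246 and 1065 CPM in CK replicates 1 to 3. Every CQ library was above every CK library, and the lowest CQ value was 2.43 times the highest CK value. The fitted log2 fold change of CQ over CK was 1.46 ± 0.09 (SE), or 2.75-fold.

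SLC7A5 (ENSG00000103257), the LAT1 light chain, lies on chromosome 16 from 87830023 to 87869488 on the minus strand. Its level was 7056, 7026 and 6474 CPM in CQ replicates 1 to 3, against 2907, 3263 and 2882 CPM in CK replicates 1 to 3. The groups did not overlap, and the lowest CQ library held 1.98 times the highest CK library. The log2 fold change was 1.18 ± 0.09 (SE), or 2.27-fold.

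SLC7A11 (ENSG00000151012), the xCT light chain, lies on chromosome 4 from 138164097 to 138242349 on the minus strand. It had 1279, 1112 and 1281 counts in CQ replicates 1 to 3, against 315, 274 and 273 counts in CK replicates 1 to 3. Scaled to library size these were 37.7, 35.9 and 35.5 CPM in CQ and 8.44, 7.89 and 7.49 CPM in CK libraries. Here too no library crossed between the groups, and the log2 fold change of 2.19 ± 0.10 (SE), or 4.58-fold, was the largest of the 3 genes.

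**Figure D1:**
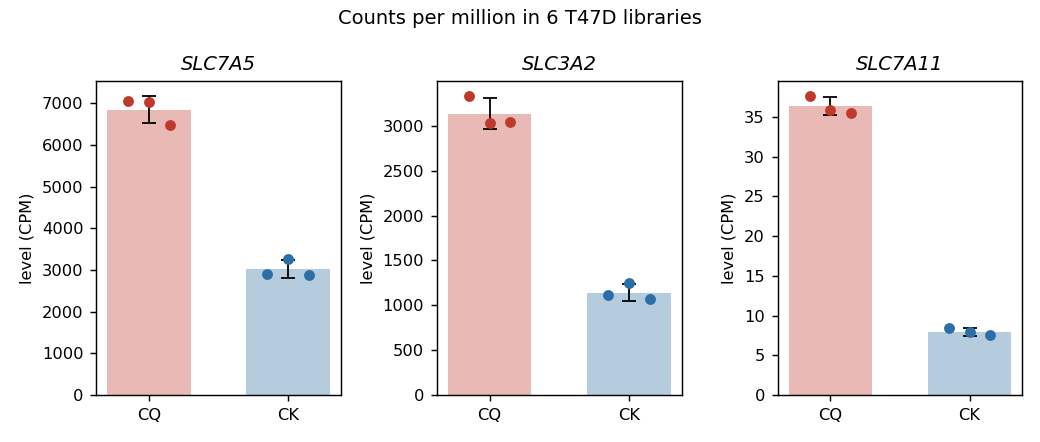
Level of SLC7A5, SLC3A2 and SLC7A11 (CPM, linear axes from 0, a separate scale per gene) in CQ and CK libraries; points are libraries, bars the mean and error bars the SD of 3 libraries. In each panel the 3 CQ points lie above the 3 CK points, and SLC7A11 (35.5 to 37.7 CPM in CQ) is on a far smaller scale than SLC7A5 (6474 to 7056 CPM in CQ).

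Since this contrast chose the genes, these values are a description and carry no test, and nothing is read from all 3 being higher without overlap. For scale, 25.5% of 17337 tested genes were higher in CQ and 26.5% lower with no overlap between the groups, and 43.9% passed the test in either direction. Among all tested genes, 99.54% had a smaller log2 fold change than SLC7A11, 98.42% a smaller one than SLC3A2 and 97.17% a smaller one than SLC7A5. Counted as a difference in CPM the order turned round. SLC7A5, higher by 3834 CPM, had the third largest difference of all tested genes (rank 3), SLC3A2, higher by 1995 CPM, had rank 7, and SLC7A11, higher by 28.4 CPM, had rank 949. In CQ libraries SLC7A5 was the most abundant transcript but 6 (rank 7), against rank 24 in CK libraries, and SLC3A2 had rank 23 in CQ and rank 75 in CK libraries. The spread among replicates was small for all 3 genes, with a coefficient of variation of 3.13% to 5.45% in CQ and 6.01% to 8.21% in CK libraries. Replicates did not rank alike across the genes: SLC7A5 and SLC3A2 were highest in CK replicate 2 among the controls, while SLC7A11 was highest in CK replicate 1.

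**Figure D2:**
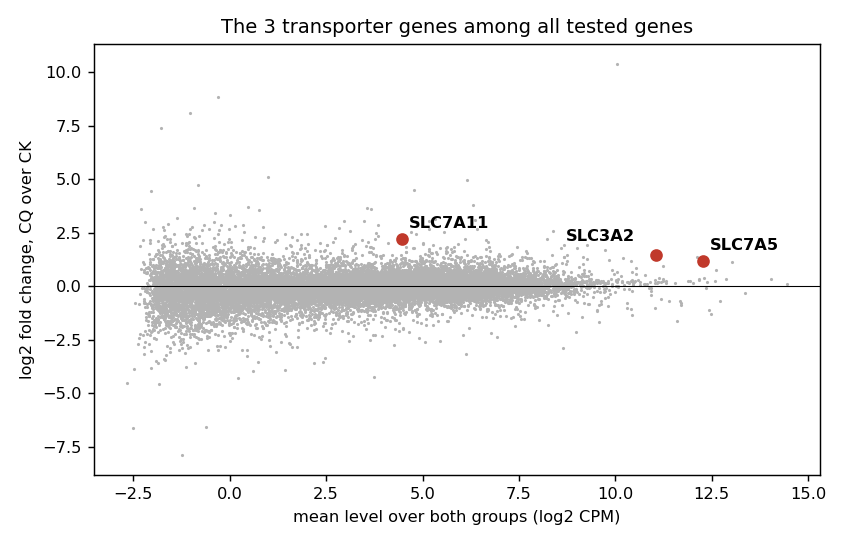
Log2 fold change of CQ over CK against mean level (log2 CPM over both groups) for 17337 tested genes in grey, with the 3 transporter genes in red. SLC7A11 lies at 2.19 among genes of middling level, and SLC3A2 (1.46) and SLC7A5 (1.18) lie at the far right among the most abundant transcripts.

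Because SLC7A5 and SLC3A2 were both higher, their start regions are shown. RefSeq windows (GRCh38.p14) of 250 bases before each annotated start were found for 2 of the 3 genes, 1 for SLC7A5 and 3 for SLC3A2. The set of windows used here held none for SLC7A11, which does not show that the gene lacks a RefSeq start. Letters searched on both strands were TGATGNAA, the core to which ATF4 binds with a C/EBP partner, TGACNNNGC, the antioxidant response element bound by NRF2, GCGTG, the xenobiotic response core bound by the aryl hydrocarbon receptor, and CACGTG, the E-box bound by MYC and by the lysosomal factors of the TFEB group. Matches are in capitals, no matches overlapped, and stretches annotated as UTR or coding were left out, while exons of non-coding genes were kept. The first sequence is chr16:87869508-87869757 (minus strand), and those of SLC3A2 are chr11:62855859-62856101 and chr11:62881449-62881698 (plus strand).
SLC7A5: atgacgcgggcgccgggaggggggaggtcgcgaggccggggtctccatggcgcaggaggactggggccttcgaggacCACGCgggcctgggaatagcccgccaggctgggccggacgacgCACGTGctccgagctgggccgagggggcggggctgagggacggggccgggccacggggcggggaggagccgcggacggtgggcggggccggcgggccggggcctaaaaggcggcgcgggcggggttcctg
SLC3A2 upstream start: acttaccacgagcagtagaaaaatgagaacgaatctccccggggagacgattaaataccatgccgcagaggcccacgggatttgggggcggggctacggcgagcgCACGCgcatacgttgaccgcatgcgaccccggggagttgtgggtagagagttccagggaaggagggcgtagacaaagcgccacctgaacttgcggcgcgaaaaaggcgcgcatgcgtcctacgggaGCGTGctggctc
SLC3A2 downstream start: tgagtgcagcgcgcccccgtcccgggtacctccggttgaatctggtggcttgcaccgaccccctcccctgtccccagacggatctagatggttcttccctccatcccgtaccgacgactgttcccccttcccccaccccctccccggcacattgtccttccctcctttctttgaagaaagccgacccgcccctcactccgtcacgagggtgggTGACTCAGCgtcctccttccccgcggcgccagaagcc

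The SLC7A5 window held 1 E-box, beginning 130 bases before the start, and 1 xenobiotic response core at 173 bases. Of the SLC3A2 windows, the one upstream held 2 xenobiotic response cores, at 145 and 19 bases. That window also takes in the first bases of SNHG1, a non-coding gene on the opposite strand that starts at 62855914. The one downstream held 1 antioxidant response element, at 37 bases, and the third, at start 62880896, held 1 xenobiotic response core at 125 bases. TGATGNAA was in none of these windows, and sequence outside them was not searched. Such letters are common: among 35116 RefSeq windows of the same length, 32.2% held the xenobiotic response core, 10.9% the antioxidant element, 6.34% the E-box and 3.14% TGATGNAA. G and C made up 79.6% of the SLC7A5 window and 60.8% to 65.6% of the SLC3A2 windows. The shares over all windows were not matched for this. A match is a description of the sequence, and these counts do not show that a factor bound it.

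Levels of different genes were compared per length, as RPKM (CPM divided by annotated exon length in kilobases). On this scale SLC7A5 stood at 1444 ± 69.1 RPKM in CQ and 636 ± 44.9 RPKM in CK libraries, and SLC3A2 at 606 ± 33.0 RPKM in CQ and 220.4 ± 18.1 RPKM in CK libraries (SD, n = 3 each). SLC7A11 stood at 3.77 ± 0.118 RPKM in CQ and 0.823 ± 0.0495 RPKM in CK libraries (SD, n = 3 each). The xCT light chain transcript was thus far scarcer than its heavy chain in every library.

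The balance of light to heavy chain transcripts was read within each library, where library scaling cancels. The ratio of SLC7A5 to SLC3A2 per length was 2.31, 2.53 and 2.32 in CQ replicates 1 to 3, against 2.85, 2.86 and 2.95 in CK replicates 1 to 3. All CQ ratios were below all CK ratios, a log2 change of -0.28. For SLC7A11 to SLC3A2 the ratio was 0.00607, 0.00636 and 0.00627 in CQ, against 0.00407, 0.00340 and 0.00377 in CK libraries, with all CQ values above all CK values and a log2 change of 0.74. Both changes are descriptions of the contrast through which the genes were chosen. The level of these ratios depends on the length taken for SLC3A2, whose annotated exons join to 5178 bases while its longest transcript has 2222 bases. With the longest transcript of each gene, SLC7A5 to SLC3A2 averaged 1.07 in CQ and 1.30 in CK libraries, and the log2 change stayed at -0.28.

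**Figure D3:**
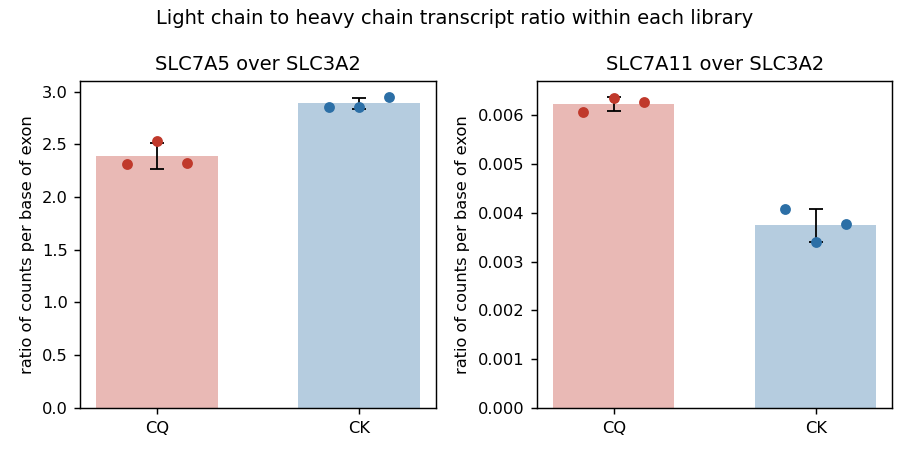
Ratio of light chain to SLC3A2 transcripts, each as counts per base of exon, within every library (points), with the mean (bars) and SD (error bars) of 3 libraries a group. SLC7A5 over SLC3A2 is lower in CQ (2.31 to 2.53) than in CK (2.85 to 2.95), and SLC7A11 over SLC3A2 is higher in CQ (0.00607 to 0.00636) than in CK (0.00340 to 0.00407).

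SLC3A2 also pairs with 4 other light chains, which were tested. They are not among the 3 chosen genes, but they too were listed with earlier results of these data known. SLC7A8, which encodes LAT2, a carrier of neutral amino acids, stood at 68.9, 70.4 and 65.8 CPM in CQ replicates 1 to 3, against 49.3, 53.3 and 51.2 CPM in CK replicates 1 to 3. It rose with no overlap between groups, by a log2 fold change of 0.42 ± 0.08 (SE; edgeR's quasi-likelihood test, adjusted by Benjamini-Hochberg over all tested genes, adjusted p = 7.3e-05). SLC7A6, which exchanges cationic for neutral amino acids, went the other way. It stood at 5.62, 6.82 and 6.85 CPM in CQ, against 13.7, 11.4 and 16.5 CPM in CK libraries, and fell by 1.11 on the log2 scale (SE 0.14, edgeR adjusted p = 1.0e-07). SLC7A7, its close relative, rose from a low level, at 0.791 ± 0.107 CPM in CQ and 0.378 ± 0.00544 CPM in CK libraries (SD, n = 3 each; edgeR adjusted p = 0.043, range over alternatives 0.041 to 0.14). That call ended without any single library and under 10 of 13 alternatives in all. SLC7A10, a carrier of alanine, serine and cysteine, stood at 0.676 ± 0.146 CPM in CQ and 0.343 ± 0.0828 CPM in CK libraries (SD, n = 3 each) and did not pass (edgeR adjusted p = 0.081).

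Ordered by RPKM in CQ libraries, SLC7A5 came first, followed by SLC3A2, SLC7A8 (11.4 ± 0.386), SLC7A11 (3.77 ± 0.118), SLC7A6 (0.847 ± 0.0920), SLC7A10 (0.217 ± 0.0470) and SLC7A7 (0.154 ± 0.0209; SD, n = 3 each). Only SLC7A10 and SLC7A7 had library values that overlapped as neighbours in this order. In CK libraries SLC7A6, at 1.83 ± 0.341 RPKM, stood above SLC7A11, so these light chains changed places between the groups. SLC7A5 made up 98.9% ± 0.0299 of the summed RPKM of the 6 light chains in CQ and 98.2% ± 0.126 in CK libraries, and SLC7A11 0.258% ± 0.00911 in CQ and 0.128% ± 0.0118 in CK libraries (SD, n = 3 each).

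**Figure D4:**
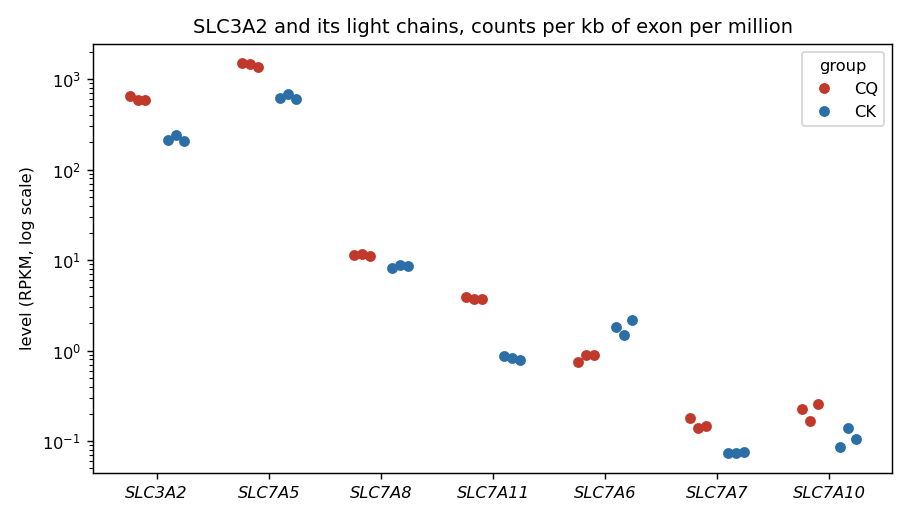
Level of SLC3A2 and its 6 light chains (RPKM, log axis) in every library, CQ in red to the left of CK in blue. SLC7A5 and the heavy chain SLC3A2 lie far above the remaining light chains, SLC7A11 is higher in CQ and SLC7A6 lower.

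SLC3A1, the heavy chain of the kidney and gut cystine exchanger, had 0 counts in all 6 libraries, as did the carriers SLC7A3 and SLC7A14. A count of 0 allows up to 3 counts, here 0.0804 to 0.0969 CPM depending on the library, for counting error only. SLC7A9 and SLC7A13, the light chains of SLC3A1, were too low to test. Of the remaining SLC7 carriers only SLC7A1, which imports arginine and lysine and needs no heavy chain, could be tested. It stood at 126, 144 and 118 CPM in CQ, against 82.6, 79.7 and 77.4 CPM in CK libraries, and rose by 0.69 ± 0.08 (log2, SE; edgeR adjusted p = 1.8e-08).

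Reads of neighbouring and similar genes bear on how the member counts can be read. SLC7A11-AS1, an antisense RNA, overlaps 865 bases (8.97%) of the SLC7A11 exons, and rose: it had 51, 50 and 41 counts in CQ, against 6, 0 and 8 counts in CK libraries (edgeR adjusted p = 2.7e-06). The sources do not state a strand setting for the counting, so reads of the sense and antisense genes cannot be told apart there. In SLC7A5, the antisense gene AC126696.2 overlaps 271 bases (5.71%) of the exons and rose by 1.68 ± 0.41 (log2, SE; edgeR adjusted p = 0.0013), with 38 to 43 counts in CQ and 8 to 21 counts in CK libraries. MIR6775 lies within an intron of SLC7A5 and rose by 1.60 ± 0.51 (log2, SE; edgeR adjusted p = 0.011, range over alternatives 0.0083 to 0.066). Its call ended without CQ replicate 3 or CK replicate 2. SLC7A11-AS1, AC126696.2 and MIR6775 passed the low-count filter through their CQ libraries, where they were higher, which limits what their adjusted p shows. MIR6775 is on the same strand as SLC7A5, so its 4 to 31 counts cannot be told from unspliced SLC7A5 RNA. Where AC126696.2 overlaps SLC7A5 exons, the reads of these genes cannot be told apart either. Of the 50-base stretches of the longest SLC7A5 transcript, 4.10% also occur exactly in another gene, nearly all in SLC7A5P2 and SMG1P3, against 0.948% for SLC7A11 and none for SLC3A2. The pseudogenes SLC7A5P1 and SLC7A5P2 had at most 10 counts in any library.

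SNHG1, a host gene of small nucleolar RNAs, lies head to head with SLC3A2, 188 bases from its first annotated base and on the opposite strand. It stood at 107, 105 and 107 CPM in CQ, against 56.0, 57.3 and 53.4 CPM in CK libraries, and rose by 0.93 ± 0.08 (log2, SE; edgeR adjusted p = 1.1e-11). Over all tested genes 43.9% were called. Within 50 kb of SLC3A2, 6 genes were tested, of which 4 rose and 1 fell. Apart from SNHG1 these were STX5, WDR74 and CHRM1, at 0.29, 0.24 and 0.49, and NXF1 at -0.29 (log2 fold changes). AP000438.1, at -0.24, did not pass (edgeR adjusted p = 0.78). Of these calls, 4 ended under some alternatives: that of STX5 ended without CK replicate 3 (edgeR adjusted p = 0.065), that of NXF1 without CQ replicate 3 (0.064), that of WDR74 without CQ replicate 1, CK replicate 1 or CK replicate 3 (0.11, 0.11 and 0.051), and that of CHRM1 without CQ replicate 1, CK replicate 1 or CK replicate 2 (0.11, 0.068 and 0.056). With library totals as the only scaling the calls of WDR74 and CHRM1 ended as well (edgeR adjusted p = 0.084 and 0.060), and that of WDR74 ended under 5 of 14 alternatives in all.

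Around the 3 genes, 153 symbols in 11 lists by role were examined, chosen with earlier results of these data known. Of 123 that could be tested, 57 rose and 25 fell (66.7% called), beside 21.8% of all tested genes higher and 22.1% lower. With library totals as the only scaling the share of higher calls among all called genes was 39.6%, against 49.6% in the analysis as reported. The lists are described by counts and by their median log2 fold change, which was -0.02 over all tested genes.

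**Figure D5:**
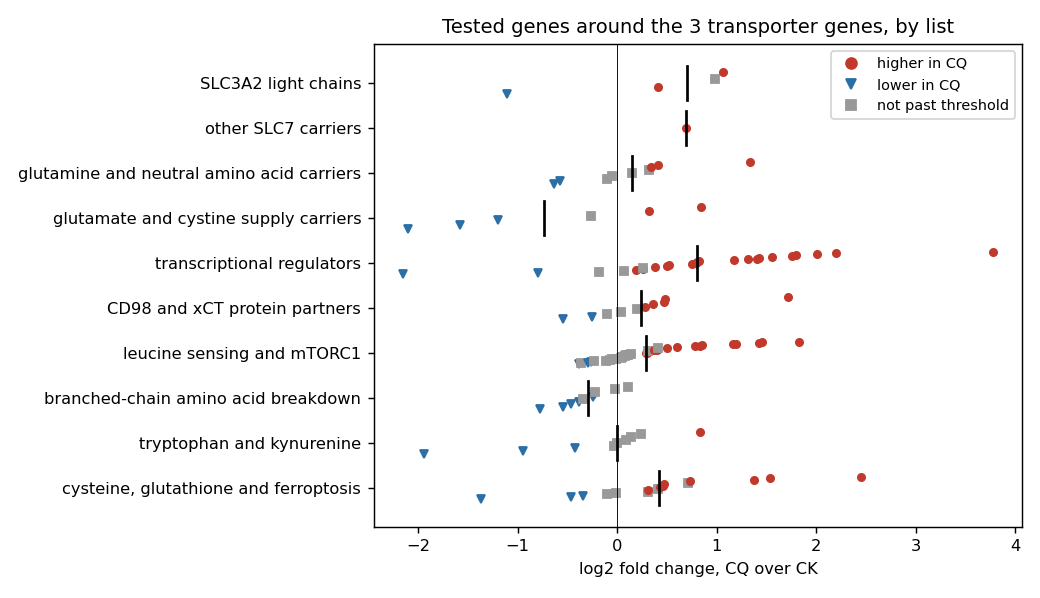
Log2 fold change of CQ over CK for each tested gene of the lists, by list; red circles passed as higher in CQ, blue triangles as lower, grey squares did not pass, and black bars mark list medians. The median of the regulator list lies at 0.80 and that of the glutamate and cystine supply carriers at -0.73.

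Carriers that work beside LAT1 moved both ways. Of 9 tested carriers of glutamine and neutral amino acids, 3 rose and 2 fell (median 0.14). Together 55.6% were called, against 43.9% of all tested genes. SLC43A1, which encodes LAT3, a uniporter of leucine and related amino acids that needs no heavy chain, stood at 33.2, 36.8 and 30.8 CPM in CQ, against 11.8, 15.2 and 13.1 CPM in CK libraries. It rose by 1.33 ± 0.11 (log2, SE; edgeR adjusted p = 7.8e-12). SLC1A5, or ASCT2, an exchanger that supplies cells with glutamine, rose by 0.34 ± 0.08 and SLC1A4, its relative, by 0.41 ± 0.08 (edgeR adjusted p = 8.5e-04 and 1.7e-04). The glutamine transporter SLC38A1 fell to 148 ± 8.86 CPM in CQ, against 229 ± 24.0 CPM in CK libraries (SD, n = 3 each; edgeR adjusted p = 1.0e-07). SLC16A10, a carrier of aromatic amino acids, fell by 0.58 on the log2 scale (edgeR adjusted p = 0.013), a call that ended without CQ replicate 2, CK replicate 1 or CK replicate 2 (0.055, 0.057 and 0.064).

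Glutamate is what xCT exports, and 3 carriers that take it up at the plasma membrane, SLC1A1, SLC1A2 and SLC1A3, could be tested. Their relatives SLC1A6, with 0, 2 and 12 counts in CQ, against 0, 0 and 4 counts in CK libraries, and SLC1A7, with 0 counts in every library, were too low to test. Of 6 tested genes of the glutamate and cystine supply list, 2 rose and 3 fell (83.3% called, against 43.9% of all tested genes). SLC1A1, which carries glutamate and cysteine, stood at 2.41, 3.59 and 3.22 CPM in CQ, against 8.39, 6.54 and 6.17 CPM in CK libraries, and fell (log2 fold change -1.20 ± 0.18, edgeR adjusted p = 1.9e-06). The glutamate carriers SLC1A2 and SLC1A3 fell, with log2 fold changes of -1.57 and -2.11 and low levels of 3.74 ± 1.08 and 0.916 ± 0.245 CPM in CK libraries (SD, n = 3 each, edgeR adjusted p = 4.5e-06 and 8.5e-04). SLC1A3 passed the low-count filter through its CK libraries, where it was higher. CTNS, or cystinosin, which exports cystine from lysosomes, rose to 27.1 ± 4.34 CPM in CQ, against 15.1 ± 0.597 CPM in CK libraries (SD, n = 3 each; edgeR adjusted p = 2.2e-07). SLC36A1, a proton-coupled carrier of small amino acids on lysosomes, rose by 0.32 ± 0.09 (log2, SE; edgeR adjusted p = 0.0038).

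Of 24 genes known to act on transcription of the transporters or in linked stress pathways, 19 rose and 2 fell (median 0.80). Calls made up 87.5% of this list, against 43.9% of all tested genes. ATF4, the amino acid response factor, stood at 612, 597 and 566 CPM in CQ, against 243, 291 and 254 CPM in CK libraries, and rose by 1.17 ± 0.08 (log2, SE; edgeR adjusted p = 1.6e-13). Its dimer partner CEBPG rose by 1.40 ± 0.10 and the stress protein NUPR1 by 1.79 ± 0.09 (edgeR adjusted p = 1.5e-13 and 4.6e-17). NFE2L2, which encodes NRF2, rose by 0.75 ± 0.09, as did its inhibitor KEAP1 by 0.81 ± 0.08 and BACH1, a repressor at the same DNA elements, by 0.79 ± 0.10 (log2, SE; edgeR adjusted p = 9.3e-08, 3.3e-10 and 1.4e-07). The small MAF proteins, partners of both NRF2 and BACH1, included MAFG, which rose 3.37-fold, and MAFF, which rose 4.01-fold (edgeR adjusted p = 3.5e-17 and 1.3e-13). AHR, the aryl hydrocarbon receptor, rose by 0.53 ± 0.12 (edgeR adjusted p = 8.7e-04).

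MYC, a factor known to drive SLC7A5 in several cancers, fell. It stood at 11.2, 7.59 and 8.76 CPM in CQ, against 40.7, 37.7 and 43.8 CPM in CK libraries, a log2 fold change of -2.15 ± 0.12 (SE; edgeR adjusted p = 6.5e-16). Only RNA was measured, and whether the level of MYC bears on that of SLC7A5 was not tested. EIF2AK2, a kinase activated by double-stranded RNA, also fell (-0.79 ± 0.09, edgeR adjusted p = 1.0e-08). Its relatives EIF2AK1, EIF2AK3 and EIF2AK4 did not pass (log2 fold changes 0.07, 0.26 and -0.18, edgeR adjusted p = 0.45, 0.082 and 0.090). DDIT3 rose by 3.78 ± 0.20, the largest change of the regulator list, and TRIB3 by 2.20 ± 0.10 (log2, SE, edgeR adjusted p = 5.3e-06 and 4.3e-13). EIF2AK2, its relatives, DDIT3 and TRIB3 are named after their values were seen. Of these, only EIF2AK2 was followed under the alternatives.

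Among 10 tested genes whose proteins bind or stabilise the transporters, 5 rose and 2 fell (median 0.24). This was 70% called, against 43.9% of all tested genes. ICAM1, an adhesion protein, led with 55.1 ± 1.48 CPM in CQ and 16.7 ± 2.41 CPM in CK libraries (SD, n = 3 each; edgeR adjusted p = 3.4e-15). The galectin LGALS3, which binds the sugars of CD98, and the mucin MUC1 rose by 0.48 ± 0.08 and 0.48 ± 0.09 (log2, SE; edgeR adjusted p = 4.9e-06 and 2.2e-05). CD44, which stabilises xCT at the membrane, rose by 0.36 ± 0.08 (edgeR adjusted p = 2.7e-04). BSG, or CD147, a membrane partner of CD98, rose by 0.28 ± 0.08 (edgeR adjusted p = 0.0056), a call that ended without CK replicate 3 (0.071). The genes that fell, named after their values were seen, were the integrin subunit ITGB1 and the receptor EGFR (log2 fold changes -0.25 and -0.54, edgeR adjusted p = 0.012 and 0.0086). The call of ITGB1 ended without CQ replicate 1, CK replicate 1 or CK replicate 3 (0.092, 0.066 and 0.066), and that of EGFR without CQ replicate 3 or CK replicate 2 (0.078 and 0.084). LAPTM4B, which brings LAT1 to lysosomes, stood at 294 ± 2.09 CPM in CQ and 286 ± 9.83 CPM in CK libraries (SD, n = 3 each; edgeR adjusted p = 0.69).

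Leucine brought in by LAT1 is sensed by the mTORC1 kinase system on lysosomes, and 16 of its 34 tested genes rose while 3 fell (median 0.29). The share called was 55.9%, against 43.9% of all tested genes. FLCN, which acts on the Rag GTPases that recruit mTORC1, had the smallest adjusted p of the list, with 77.4, 78.7 and 75.5 CPM in CQ, against 23.0, 20.8 and 21.5 CPM in CK libraries (log2 fold change 1.83 ± 0.09, edgeR adjusted p = 1.9e-17). Its partner FNIP1 rose by 1.16 ± 0.09, and the Rag GTPases RRAGD and RRAGC by 1.45 ± 0.09 and 1.43 ± 0.12 (log2, SE; edgeR adjusted p = 7.4e-12, 3.2e-14 and 1.9e-11). SESN2, a leucine sensor that restrains mTORC1, rose to 105 ± 12.4 CPM in CQ, against 45.6 ± 1.22 CPM in CK libraries (SD, n = 3 each; edgeR adjusted p = 4.3e-13). Those that fell, named after their values were seen, were the mTORC1 inhibitor TSC2, the small GTPase SAR1B and the S6 kinase RPS6KB1 (log2 fold changes -0.26, -0.29 and -0.38, edgeR adjusted p = 0.0045, 0.0059 and 0.0037). The call of TSC2 ended without CQ replicate 3 (0.062) and that of SAR1B without CK replicate 3 (0.053). TSC1, the partner of TSC2, rose (log2 fold change 0.86 ± 0.08, SE, edgeR adjusted p = 2.8e-10). It is also named after its value was seen, and was not followed under the alternatives. LARS, the leucyl-tRNA synthetase, stood at -0.02 ± 0.08 (log2, SE) and did not pass (edgeR adjusted p = 0.89).

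Genes that break down branched-chain amino acids went lower where they changed: 6 of 10 tested fell and none rose (median -0.29). In all 60% were called, against 43.9% of all tested genes. MCCC2 and IVD, enzymes of the leucine pathway, fell with log2 fold changes of -0.77 and -0.55 (edgeR adjusted p = 5.5e-10 and 1.8e-07), and the phosphatase PPM1K fell by 0.47 (edgeR adjusted p = 3.0e-04). BCKDHB, of the branched-chain ketoacid dehydrogenase, fell by 0.38 (edgeR adjusted p = 0.0099), a call that ended without CQ replicate 2 or CK replicate 3 (0.052 and 0.082). BCAT2, the mitochondrial aminotransferase, fell by 0.25 (edgeR adjusted p = 0.028), a call that ended under 5 of 14 alternatives, among them those without CQ replicate 2, CQ replicate 3 or CK replicate 2 (0.053, 0.25 and 0.16) and DESeq2 (0.056).

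Tryptophan, another LAT1 substrate, is broken down through kynurenine. Of 9 tested genes of that list 1 rose and 3 fell (median -0.01). At 44.4% called, the list was close to the 43.9% of all tested genes. The tryptophanyl-tRNA synthetase WARS rose to 231 ± 8.55 CPM in CQ, against 130.1 ± 4.56 CPM in CK libraries (SD, n = 3 each; edgeR adjusted p = 5.6e-11). The kynurenine enzymes KYNU, KMO and HAAO fell with log2 fold changes of -0.42, -0.95 and -1.94 (edgeR adjusted p = 3.1e-04, 8.7e-04 and 0.0015), HAAO having only 0.877 ± 0.328 CPM in CK libraries (SD, n = 3). HAAO passed the low-count filter through those CK libraries. IDO1, which starts the pathway, was too low to test.

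Cystine imported by xCT feeds glutathione synthesis and protection from lipid peroxides. Of 16 tested genes of this list 8 rose and 3 fell (68.8% called, against 43.9% of all tested genes, median 0.42). GCLM, the modifier subunit of the rate-limiting enzyme, stood at 45.0, 52.1 and 48.0 CPM in CQ, against 8.71, 8.52 and 9.25 CPM in CK libraries, and rose by 2.45 ± 0.10 (log2, SE; edgeR adjusted p = 7.5e-19). GCLC, the catalytic subunit, rose by 0.73 ± 0.09 and TXNRD1, a thioredoxin reductase, by 1.38 ± 0.08 (edgeR adjusted p = 9.0e-08 and 8.5e-16). CHAC1, which degrades glutathione, rose to 14.1 ± 3.10 CPM in CQ, against 4.86 ± 0.714 CPM in CK libraries, while its relative CHAC2 fell to 1.48 ± 0.462 CPM in CQ, against 3.80 ± 0.419 CPM in CK libraries (SD, n = 3 each; edgeR adjusted p = 9.3e-10 and 1.5e-05). GGT1, which cleaves glutathione outside cells, and CSAD, which turns a cysteine product towards taurine, also fell and are named after their values were seen (log2 fold changes -0.46 and -0.34, edgeR adjusted p = 3.6e-05 and 0.0048). GPX4, which reduces lipid peroxides with glutathione, rose by 0.46 ± 0.08 (edgeR adjusted p = 1.6e-05).

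Genes of most similar pattern were found by the root mean square difference of log2 CPM, centred on the CK mean, over the 6 libraries, among 9341 genes averaging 10 CPM or more. The closest to SLC7A5 were YARS, a tyrosyl-tRNA synthetase, SEPHS2, an enzyme of selenoprotein synthesis, ATF4 and ZFP36, an mRNA decay factor, at differences of 0.0143, 0.0270, 0.0316 and 0.0389. For SLC3A2 they were the sialidase NEU1, the heme transporter SLC48A1, RAP1GAP and PIP4P1, at 0.0232, 0.0509, 0.0509 and 0.0542. Those of SLC7A11 lay farther off, with the tryptase pseudogene TPSP2, PLD6, DUSP15 and the circadian factor DBP at 0.102, 0.121, 0.144 and 0.145. Likeness here reflects the size of the difference between the groups as well as the spread among replicates, and it is a description with no test.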

How the data were processed

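Whole-number read counts per gene were deposited by the authors for 6 T47D libraries, made against GRCh38 per the submitters' processing notes. RNA was extracted with TRIzol, prepared with a NEBNext Ultra kit and sequenced on an Illumina NovaSeq instrument, per the labels' protocols. For the aligner, counter and strand setting: not given in the sources used here. All 58735 gene IDs have the coordinates and exon lengths of GENCODE 29. Groups and replicate numbers came from sample titles. P-values measure the spread between these samples, which may be technical; no libraries held identical values.

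Counts were analysed in R 4.3.3 with edgeR 4.0.16: 17337 genes passed filterByExpr (at least 10 counts, 15 in total), libraries were scaled by TMM, and a robust quasi-likelihood test compared CQ with CK, with Benjamini-Hochberg adjustment over all tested genes and a threshold of 0.05. The SE is the log2 fold change divided by the square root of F. The test was checked on simulated counts. The 3 genes, the lists and the naming rule were chosen with earlier results of these data known. By that rule, all tested SLC7 relatives, up to 5 genes per other list with the smallest adjusted p, 19 genes whatever their result, neighbours within 50 kb and 4 similar genes per member are named; some items are not reported here. Alternatives were RLE or no scaling factors, no or a stricter (1 CPM in 3 libraries) filter, DESeq2 1.42.0, limma-voom (limma 3.58.1), the replicate number as a block, each library left out, mitochondrial transcripts removed, pseudogene counts added to SLC7A5, and another gene length.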

Additional observations from a re-analysis of the deposited data

How the results depend on the processing

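The log2 fold changes of the 3 genes kept their sign under every alternative run, from 1.11 to 1.24 for SLC7A5, 2.12 to 2.24 for SLC7A11 and 1.39 to 1.53 for SLC3A2. The lowest value of SLC7A11, 2.12 with library totals as the only scaling, moved by more than the spread between replicates. Adding pseudogene counts to SLC7A5 moved it by less than that spread, as it had to with at most 10 such counts in any library. Reads that SLC7A5 shares with other genes were not examined by this. The number of called genes ran from 6262 to 7681, against 7610, and that of called list genes from 53 to 58 higher and 21 to 30 lower, against 57 and 25. The log2 change of the ratio ran from -0.32 to -0.25 for SLC7A5 to SLC3A2 and from 0.67 to 0.80 for SLC7A11 to SLC3A2. Using the longest transcript as length, an alternative chosen after seeing the data, moved the level of these ratios and not their change.

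Of 81 other genes followed, 15 lost their call under at least 1 alternative and none reversed while called; the cause was not tested. Same-numbered libraries did not deviate together (Pearson's r across genes of -0.13 to 0.00474), and 0 of 6 libraries correlated best with its own number. These values show no pairing by number, but with 3 libraries a group they cannot exclude it. With the replicate number as a block, 6779 genes were called, and SLC7A5, SLC7A11 and SLC3A2 were at 1.18, 2.20 and 1.46. The block also ended the calls of SLC7A7, BCAT2 and WDR74 (edgeR adjusted p = 0.069, 0.054 and 0.052). Depth limits the light chains SLC7A7 and SLC7A10, at 10 to 31 counts per library.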
